A study of Mus musculus with 6 samples.

Results

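De novo lipogenesis is the making of fatty acids from carbon that does not come from fat, and 10 genes for its enzymes and regulators were followed here in subcutaneous white adipose tissue (scWAT) of the mouse. The members were chosen by gene symbol, not by their values: *Acly*, *Acss2*, *Me1*, *Acaca*, *Acacb* and *Fasn* for the enzymes, *Thrsp* for a protein of lipogenic tissues, and *Mlxipl*, *Srebf1* and *Insig1* for the regulators. All 10 were found among the 55401 genes in the files, and all 10 were among the 16807 genes with enough counts to be tested.

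The tissue came from male mice of 8 weeks kept at room temperature on normal chow. Both genotypes carried floxed alleles of *Yap* and *Taz*, the genes of the transcriptional coactivators YAP and TAZ of the Hippo pathway. The 3 control mice, labelled WT and called YT-FF here, had no Cre. The 3 YT-AKO mice (Yapfl/fl/Tazfl/fl;AdipoqCre) had in addition a Cre driven by the *Adipoq* promoter, a promoter of mature adipocytes, so the other cells of the fat pad were not targeted. Each library is whole-tissue RNA from 1 sample, and fewer cells of a type and less RNA per cell cannot be told apart in such data. Nothing in the labels beyond a replicate number says how the samples of a group differ, so the p-values measure the spread between these samples.

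Lipogenesis begins in the cytosol with acetyl-CoA, which ATP-citrate lyase (*Acly*) splits from citrate exported from mitochondria and which acetyl-CoA synthetase (*Acss2*) makes from acetate. Acetyl-CoA carboxylase 1 (*Acaca*) turns it into malonyl-CoA for fatty acid synthase (*Fasn*), which builds palmitate with NADPH, part of which comes from malic enzyme (*Me1*). Acetyl-CoA carboxylase 2 (*Acacb*) sits at the mitochondrial outer membrane, where its malonyl-CoA restrains the import of fatty acids for oxidation. The pathway is set largely by transcription, through SREBP1 (*Srebf1*), which insulin signalling engages and which INSIG1 (*Insig1*) helps to retain in the endoplasmic reticulum, and through ChREBP (*Mlxipl*), which responds to sugar metabolites. THRSP (Spot 14) is a small protein of lipogenic tissues whose gene responds to thyroid hormone and carbohydrate.

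The files held 17740987 to 21838493 counted fragments per library, and 3 fragments were worth 0.137 to 0.169 CPM, the counts scaled to library size. The targeted genes were read first. *Yap1* had 69.1, 57.1 and 66.7 CPM in the YT-FF libraries and 37.7, 29.0 and 31.3 in the libraries labelled YT-AKO, a log2 fold change of -0.98 ± 0.17 (SE; edgeR adjusted p = 0.0179). *Wwtr1*, which encodes TAZ, had 77.5, 76.0 and 98.8 CPM in YT-FF and 175, 133 and 161 in the other group, and so went against the label (log2 fold change 0.89 ± 0.18, edgeR adjusted p = 0.0220). The counts sum all exons of a gene, so a deleted part was not read on its own. In the authors' immunoblots YAP and TAZ protein was lower in scWAT of YT-AKO mice, which is another measure than these counts. Directions below are those of the libraries labelled YT-AKO. Fat cell markers were present in every library: *Adipoq* (adiponectin) ran from 1473 to 2402 CPM and *Plin1* (perilipin 1) from 1462 to 2831 CPM, and neither passed the test, while *Fabp4*, a fatty acid carrier, rose by 1.34 (log2; edgeR adjusted p = 0.0475). The thermogenic genes *Ucp1* and *Cidea* rose by 5.27 and 3.17 on the log2 scale (edgeR adjusted p = 0.00782 and 0.00729). The library YT-AKO 2 stood apart from the other libraries of its group: a chi-square over genes divided by its degrees of freedom was 177 against YT-AKO 1 and 161 against YT-AKO 3, while the other pairs of one group gave 13.0 to 36.0. In YT-AKO 1, 7 skeletal muscle markers summed to 2945 CPM, against 112 to 438 CPM in the other 5 libraries.

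Only *Thrsp* of the 10 genes passed the test between genotypes. It had 1207, 1009 and 1407 CPM in the YT-FF libraries and 3591, 5460 and 1826 CPM in the libraries labelled YT-AKO. The lowest of these lay above the highest YT-FF value, so the groups did not overlap in CPM. The fold change was 3.0, with a 95% interval of 1.60 to 5.62 (log2 fold change 1.59 ± 0.39 SE, edgeR adjusted p = 0.0312, n = 3 and 3). In the table as a whole 12.6% of the tested genes were called higher at this threshold and 9.01% lower, and 1 of 10 called higher and 0 of 10 called lower are near that background. At an unadjusted p under 0.05 *Thrsp* was again the 1 member found, where 6852 of the 16807 tested genes were found in either direction. DESeq2 also called *Thrsp* alone (adjusted p = 0.000408) where it called 18.1% of genes higher and 14.3% lower. Genes whose groups did not overlap in CPM made up 25.7% of those tested in the higher direction and 25.8% in the lower, against 1 and 0 of the 10 members.

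The call on *Thrsp* depended on the libraries used. Over the 6 fits that left out 1 library each, its log2 fold change stayed between 1.16 and 1.92, and it was called in 3. It was not called without YT-FF 1 (edgeR adjusted p = 0.129), YT-FF 2 (0.140) or YT-FF 3 (0.0707), fits in which the calls over all genes dropped from 2121 higher and 1515 lower to 0 and 0, 0 and 2, and 704 and 528. Summed CPM of 8 adipocyte markers was also higher in the libraries labelled YT-AKO, at 41100 to 85462 CPM against 20251 to 27468 CPM, with 2 of the 8 called, *Cfd* and *Fabp4*. *Cfd*, named after its values were seen, held much of this sum, at 18705, 48819 and 19297 CPM against 5370, 5902 and 5341 CPM in YT-FF. The median log2 fold change of the 8 was 0.42. The part of these markers in the *Thrsp* difference was not tested. With a log2 fold change beyond 1 and an adjusted p under 0.01 as the stricter threshold, edgeR called 15 genes higher and 6 lower, and none of the 10.

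**Figure D1:**
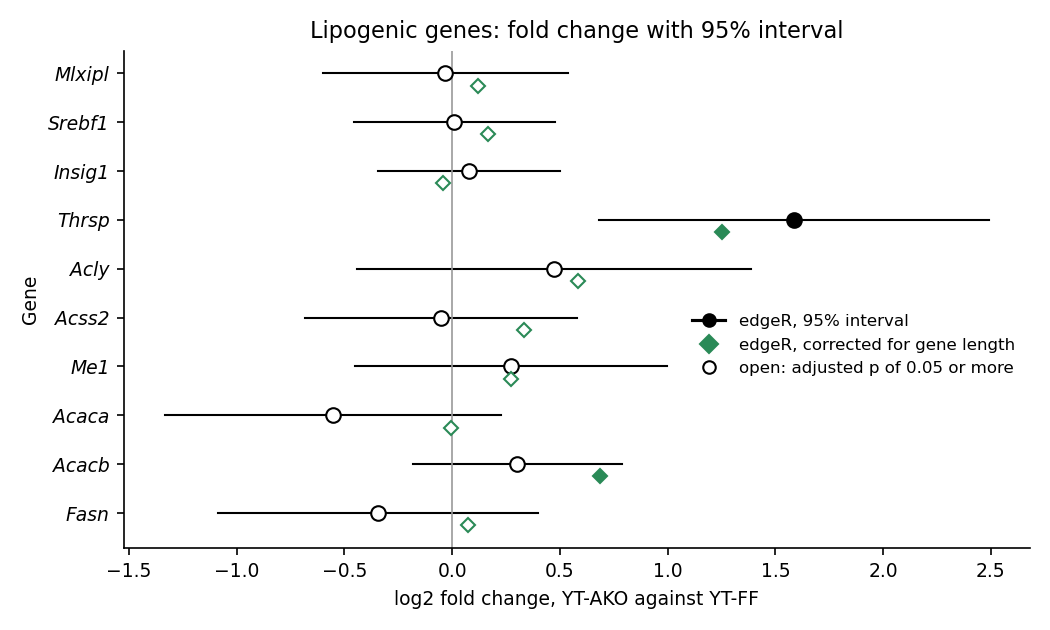
Log2 fold change of the libraries labelled YT-AKO against YT-FF for the 10 genes (circles, with 95% intervals as lines), and the same after a correction of each library for gene length (diamonds). Filled symbols have an adjusted p under 0.05. *Thrsp* at 1.59 stands alone on the right, and *Acaca* and *Fasn* move from -0.55 and -0.35 to -0.01 and 0.08 with the correction.

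*Thrsp* spans chr7:97412938-97417730 on the minus strand of GRCm38 (mm10), with 2189 bases of exons, the shortest of the 10. Its promoter is shown beside those of *Fasn*, which moved apart from it, and of the regulators *Insig1* and *Mlxipl*, because they hold between them the motifs that lipogenic factors are known for. The sequences are RefSeq's (GRCm38.p6), from the 250 bases before a start site, written 5′ to 3′ on the gene's strand and cut where GENCODE annotates an exon. For *Thrsp* 180 of the 250 bases lie in such an exon, so that 70 bases at chr7:97417731-97417800 and the surroundings of its CCAAT boxes, at chr7:97417615-97417639 and chr7:97417588-97417612, are given. *Fasn* is shown at chr11:120824548-120824797 (minus strand), *Insig1* at chr5:28071162-28071362 (plus strand), and *Mlxipl* at its start inside the gene, chr5:135106641-135106890 (plus strand). Capitals mark motif matches on either strand.
Thrsp, before the exons: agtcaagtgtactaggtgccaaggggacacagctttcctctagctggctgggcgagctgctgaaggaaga
Thrsp, inverted CCAAT box: aaacgctgggATTGGctcaaaacag
Thrsp, CCAAT box: ctgtgttgctCCAATggttgggctt
Fasn: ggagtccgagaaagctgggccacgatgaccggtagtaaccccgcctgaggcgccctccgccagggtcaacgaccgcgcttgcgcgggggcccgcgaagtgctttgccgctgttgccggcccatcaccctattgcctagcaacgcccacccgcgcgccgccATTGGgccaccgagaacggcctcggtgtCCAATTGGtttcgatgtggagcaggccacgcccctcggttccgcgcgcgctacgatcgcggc
Insig1: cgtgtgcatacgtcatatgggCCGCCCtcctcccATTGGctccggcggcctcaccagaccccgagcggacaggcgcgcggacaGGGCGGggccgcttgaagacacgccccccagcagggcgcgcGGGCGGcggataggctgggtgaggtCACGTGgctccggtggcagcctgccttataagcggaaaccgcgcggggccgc
Mlxipl, start inside the gene: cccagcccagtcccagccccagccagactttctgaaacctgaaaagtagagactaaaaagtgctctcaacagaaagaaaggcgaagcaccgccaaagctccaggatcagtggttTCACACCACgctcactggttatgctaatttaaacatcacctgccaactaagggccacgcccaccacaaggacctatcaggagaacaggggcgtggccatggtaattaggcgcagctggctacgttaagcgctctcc

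The motifs searched were the E-box CACGTG, the sterol regulatory element TCACNCCAC, the CCAAT box CCAAT, the GC box GGGCGG and the TEAD site CATTCC, the last because TEAD factors carry YAP and TAZ to DNA, along with the carbohydrate response element as a pair of E-boxes 5 bases apart and the LXR element as a pair of AGGTCA repeats 4 bases apart. The 10 genes had 14 start windows of 300 bases, of 32851 windows in all. The CCAAT box, bound by NF-Y, was in 10 of the 14 windows, from 9 of the 10 genes, and in 37.4% of all windows. In *Thrsp* it lies 52 bases before the start and, inverted, 79 bases before it, and in *Fasn* at 62, 90 and 59 bases, where the matches at 62 and 59 overlap in 1 palindromic run. The E-box was in *Insig1*, at 101 bases before the start, and in *Mlxipl* (7.15% of all windows). The sterol regulatory element was in *Mlxipl* alone, at 136 bases before the inner start (1.24%). GC boxes were in 7 of the 14 windows (35.7%), and CATTCC was in 1 window each of *Acss2* and *Me1* (14.7%). The carbohydrate response element was in 0 windows and the LXR repeat in 0.0152% of windows and no member, which says only that those letters are not in these windows.

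*Fasn* had the highest level of the 10 genes in YT-FF when counts were taken per base of exon and as a share of the library (TPM). It stood at 2787 ± 443 TPM (SD, n = 3), and *Thrsp* came next at 2086 ± 251 TPM. The YT-FF ranges of these genes did not overlap with each other or with the next. *Me1* (710 ± 133 TPM), *Acly* (516 ± 90.4), *Srebf1* (425 ± 90.1) and *Insig1* (388 ± 29.1) followed with ranges that overlapped from each to the next. *Acacb* (262 ± 34.2 TPM) and *Acaca* (221 ± 43.1) came below them and overlapped each other. *Mlxipl* (118 ± 33.4) and *Acss2* (87.7 ± 22.2) were lowest.

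In the libraries labelled YT-AKO *Thrsp* came before *Fasn*, at 3737 ± 1277 TPM against 1448 ± 811 TPM, though the range of *Thrsp* (2268 to 4573 TPM) and that of *Fasn* (774 to 2348 TPM) touched through different libraries. Every other gene kept its rank by mean, and every gene overlapped with its neighbour in that order. *Thrsp* made up 25.2% to 30.4% of the summed TPM of the 10 genes in YT-FF and 41.9% to 69.9% in the libraries labelled YT-AKO, while *Fasn* made up 34.2% to 39.1% and 12.4% to 23.5%. The summed TPM itself was 7600 ± 838 in YT-FF and 7219 ± 2438 in the other group, which an exact two-sided permutation test over the 6 libraries did not separate (p = 0.7, where 0.1 is the smallest possible).

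**Figure D2:**
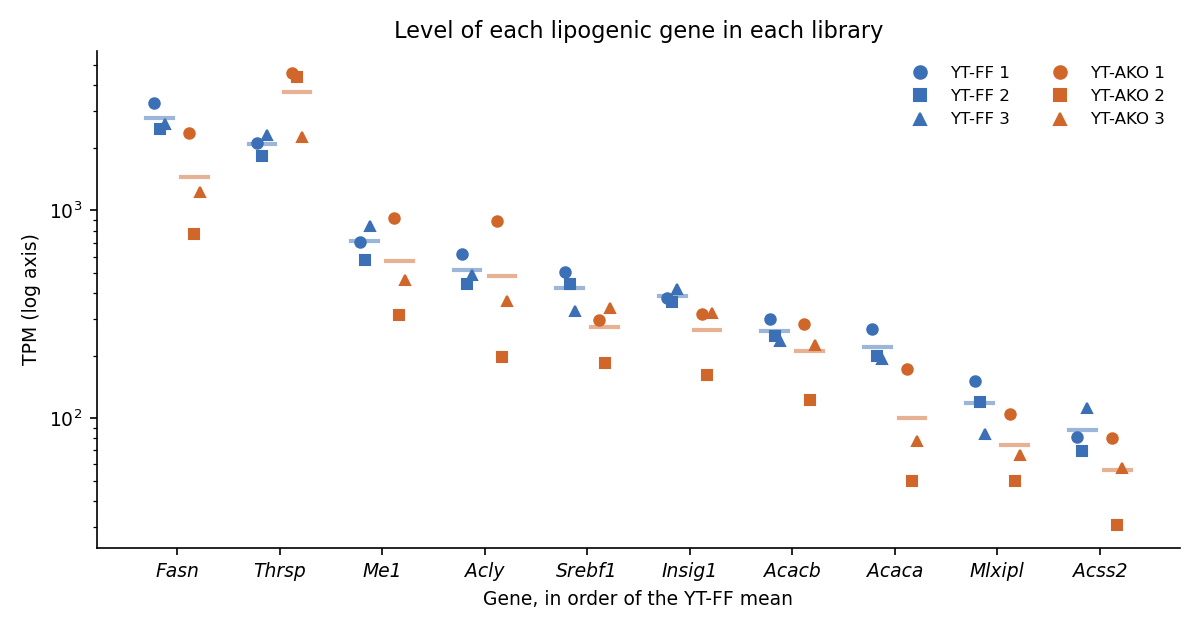
TPM of each gene in each library on a log axis, with bars at the group means, in the order of the YT-FF mean. *Thrsp* is above *Fasn* in all 3 libraries labelled YT-AKO and below it in all 3 YT-FF libraries, and YT-AKO 2 is the lowest of the 6 libraries in each gene but *Thrsp*.

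TPM is a share of each library, and the 2 groups did not share it out alike. The TMM factors, which scale each library to the genes most have in common, were 1.07 to 1.16 in YT-FF and 0.777 to 0.955 in the libraries labelled YT-AKO. On the TPM scale *Insig1*, *Acaca* and *Fasn* were lower in the libraries labelled YT-AKO with no overlap. The share of all genes with no overlap in TPM was not computed, so this count has no background beside it. On the TMM-scaled CPM used for the tests, all 3 overlapped, and *Insig1* had a log2 difference of 0.08. *Thrsp* went the other way: its groups overlapped in TPM, where YT-AKO 3 had 2268 and YT-FF 3 had 2319, and its log2 difference was 0.84 in TPM. The median log2 fold change of the 10 genes was 0.04 with TMM, beside -0.02 over all tested genes. With library totals alone it was -0.27, beside -0.34 over all genes, a like shift in both.

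None of the 3 regulators passed the test. *Srebf1* (chr11:60199089-60222581) had 740, 631 and 511 CPM in YT-FF and 602, 593 and 701 CPM in the libraries labelled YT-AKO. The later values lay inside the YT-FF range, and the log2 fold change was 0.01 with a 95% interval of -0.46 to 0.48 (edgeR adjusted p = 0.973). *Insig1* (chr5:28071363-28078662) had 306, 285 and 360 CPM against 352, 285 and 366 CPM. Its groups overlapped over nearly their whole ranges, and the interval of its log2 fold change ran from -0.35 to 0.50 (0.08 ± 0.18, adjusted p = 0.772). *Mlxipl* (chr5:135089890-135138382) had 218, 167 and 129 CPM against 209, 158 and 136 CPM. The later range lay inside the YT-FF range, and the log2 fold change was -0.03 with an interval of -0.60 to 0.54 (adjusted p = 0.932). These intervals do not show that the regulators were equal in both groups. *Srebf1* and *Mlxipl* have several start sites, and the gene counts add their transcripts, so SREBP1a against SREBP1c and ChREBP alpha against beta were not read apart.

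The genes that feed acetyl-CoA and NADPH to the synthase did not pass the test either. *Acly* (chr11:100476353-100528000) had 847, 592 and 715 CPM in YT-FF and 1681, 592 and 716 CPM in the libraries labelled YT-AKO. YT-AKO 1 alone was high, and the other 2 libraries stood at the level of YT-FF 2 and YT-FF 3. The log2 fold change was 0.47 ± 0.39 (interval -0.44 to 1.39, edgeR adjusted p = 0.392) and -0.13 without YT-AKO 1. *Me1* (chr9:86581371-86695953) had 707, 565 and 902 CPM against 1277, 691 and 658 CPM. Again YT-AKO 1 alone lay above the YT-FF range, and the log2 fold change of 0.27 ± 0.31 (adjusted p = 0.534) became -0.09 without it. *Acss2* (chr2:155517948-155585724) had 214, 179 and 317 CPM against 293, 177 and 215 CPM, with overlapping groups and a log2 fold change of -0.05 ± 0.27 (adjusted p = 0.899). It shares 9.12% of its exon bases with other genes, where fragments were not counted.

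*Acaca*, *Acacb* and *Fasn* make and use malonyl-CoA. *Fasn* (chr11:120805846-120824547) had 9375, 6821 and 7918 CPM in YT-FF and 9218, 4833 and 4928 CPM in the libraries labelled YT-AKO. YT-AKO 1 lay inside the YT-FF range and the other 2 below it. The log2 fold change was -0.35 ± 0.32 (interval -1.09 to 0.40, edgeR adjusted p = 0.441), and no fit with 1 library left out called it. It was -0.71 without YT-AKO 1, -0.19 without YT-AKO 2 or YT-AKO 3 and -0.22 without YT-FF 1. *Acaca* (chr11:84129672-84401651) had 1200, 863 and 910 CPM against 1052, 488 and 488 CPM, again with YT-AKO 1 inside the YT-FF range and the other 2 below it. Its log2 fold change was -0.55 ± 0.34 (interval -1.33 to 0.23, adjusted p = 0.249) in all 6 libraries and -1.01 without YT-AKO 1, where edgeR called it lower (adjusted p = 0.0350). Without YT-AKO 2 or YT-AKO 3 it was -0.37 or -0.36, and without YT-FF 1 it was -0.39, none of them called. *Acacb* (chr5:114146535-114250761) had 753, 607 and 630 CPM against 986, 674 and 795 CPM. Only YT-AKO 2 lay within the YT-FF range, and the log2 fold change was 0.30 ± 0.21 (interval -0.18 to 0.79, adjusted p = 0.306) and 0.16 without YT-AKO 1. The muscle markers high in YT-AKO 1 stand beside these differences, and their part in them was not tested.

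YT-AKO 1 was the highest of its group in 7 of the 10 genes and YT-AKO 2 the lowest in 6. The median SD of log2 CPM between libraries was 0.257 in YT-FF and 0.448 in the libraries labelled YT-AKO, and the spread was wider in the latter for 7 of the 10 genes. Over all tested genes the medians were 0.190 and 0.365, and 12713 of 16807 genes were wider in that group.

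**Figure D3:**
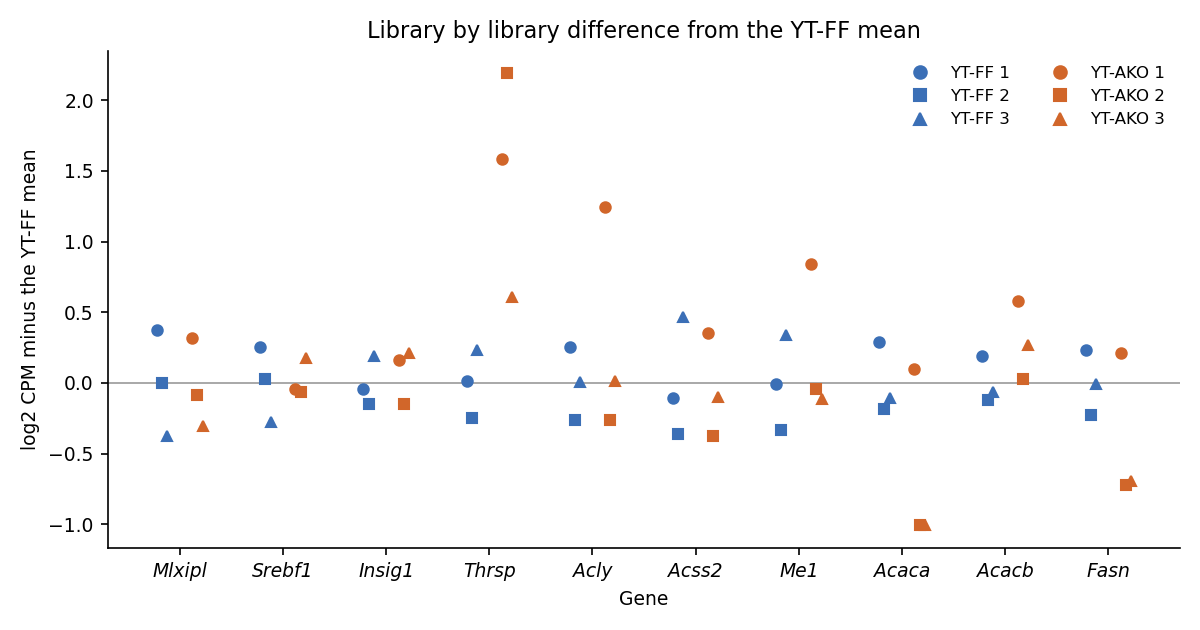
Log2 CPM (TMM-scaled) of each library minus the YT-FF mean, for each of the 10 genes. All 3 libraries labelled YT-AKO are above the YT-FF libraries for *Thrsp* alone. YT-AKO 1 is separate and high in *Acly* and *Me1*, and YT-AKO 2 and YT-AKO 3 are low together in *Acaca* and *Fasn*.

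The fold changes ran with gene length. Over all genes tested, none of them a replicate of another, log2 fold change fell with the log2 of exon length (Spearman's rho -0.376), and the members ran from 2189 bases (*Thrsp*) to 17074 bases (*Acaca*). With each library corrected for length by a spline, edgeR called 2 of the 10, both higher, where 14.8% of all genes were called (1685 higher and 800 lower). *Thrsp* kept its call at a log2 fold change of 1.25 (adjusted p = 0.0474), and *Acacb* was called at 0.69 (adjusted p = 0.0428). *Acaca* and *Fasn* stood at -0.01 and 0.08 after the correction, so the lower values of these long genes were not seen on that scale. The cause of the trend was not tested, and the correction also removes any real difference that runs with length. The median log2 fold change of the 10 genes was then 0.22, beside 0.03 over all genes.

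Ratios of related genes within a library do not depend on how libraries are scaled, but they keep any trend with gene length. The pairs compared numbered 9. The TPM of *Acaca* was 0.837 times that of *Acacb* in YT-FF, and in the libraries labelled YT-AKO it was 0.440 times (geometric means). The log2 ratios were -0.15, -0.32 and -0.30 in YT-FF and -0.73, -1.29 and -1.53 in the libraries labelled YT-AKO. The 3 later ratios were all lower, a difference of -0.93 ± 0.24 (SE). An exact two-sided permutation test gave p = 0.1, the smallest that 3 against 3 libraries allow, and 0.18 after Benjamini-Hochberg adjustment over the 9 pairs, so no pair could pass 0.05. The length-corrected fold changes of these genes kept the same order.

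*Srebf1* over *Srebf2*, the paralogue that mainly serves cholesterol synthesis, went from 5.84 to 9.21, with log2 ratios of 2.68, 2.55 and 2.41 against 3.07, 3.48 and 3.06. The groups did not overlap (difference 0.66 ± 0.16, exact permutation p = 0.1). *Srebf1* itself differed by 0.01 and *Srebf2* by -0.61 on the log2 scale (adjusted p = 0.0611 by edgeR and 0.0231 by DESeq2, which called it lower). *Mlxipl* over *Mlxip*, which encodes the related MondoA, went from 2.33 to 4.27 with no overlap (difference 0.87 ± 0.36, exact permutation p = 0.1), beside a *Mlxip* log2 fold change of -0.81 (adjusted p = 0.0926 by edgeR and 0.0436 by DESeq2, which called it lower). *Acss2* over *Acss1*, the mitochondrial acetyl-CoA synthetase, went from 2.15 down to 1.21 with no overlap (difference -0.83 ± 0.34, exact permutation p = 0.1), and *Acss1* rose by 0.79 on the log2 scale (edgeR adjusted p = 0.0185). *Acacb* over *Mlycd*, whose product breaks down malonyl-CoA, went from 4.13 to 2.19 with no overlap (difference -0.92 ± 0.34, exact permutation p = 0.1). With *Acaca* over *Acacb*, 5 of the 9 pairs did not overlap between the groups. Of single genes tested, 25.7% and 25.8% did not overlap in CPM in the higher and lower direction. No such share was computed for ratios of gene pairs, so 5 of 9 has no background of its own kind. In each of these 5 pairs the gene with more exon bases was the one lower relative to its partner in the libraries labelled YT-AKO. The part of gene length in these ratios was not tested. Leaving out 1 library, *Mlxipl* over *Mlxip* was 0.55 to 1.06, lowest without YT-AKO 2, and *Acss2* over *Acss1* was -1.01 to -0.55, smallest without YT-FF 3.

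The other 4 pairs overlapped. *Insig1* over *Insig2* was 8.34 and 7.87 (difference -0.08 ± 0.08, exact permutation p = 0.5), the closest of the pairs. *Thrsp* over *Mid1ip1*, its paralogue, was 30.2 and 48.0 (difference 0.67 ± 0.43, exact permutation p = 0.3), where *Mid1ip1* rose as well, by 0.77 on the log2 scale (edgeR adjusted p = 0.0396). *Me1* over the mitochondrial malic enzymes *Me2* (32.4 and 43.5) and *Me3* (855 and 753) gave exact permutation p-values of 0.4 and 0.5. A further pair, *Thrsp* over *Fasn*, was added after the values had been seen and is given as a description. It went from 0.751 to 2.73, with log2 ratios of -0.64, -0.43 and -0.17 in YT-FF and 0.96, 2.50 and 0.89 in the libraries labelled YT-AKO. *Fasn* has 10947 bases of exons and *Thrsp* 2189, and the part of length in this ratio was not tested.

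**Figure D4:**
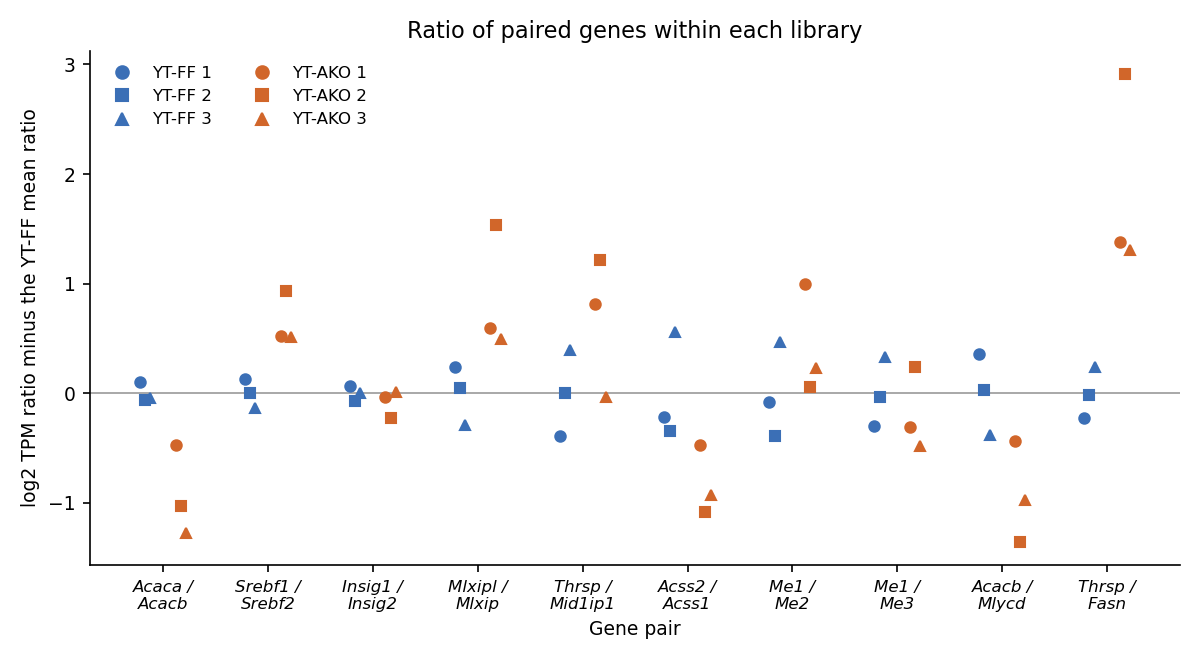
Log2 ratio of the TPM of the paired genes in each library, minus the YT-FF mean of that ratio. The ratios of *Acaca* to *Acacb*, *Acss2* to *Acss1* and *Acacb* to *Mlycd* are lower in all 3 libraries labelled YT-AKO, and those of *Srebf1* to *Srebf2*, *Mlxipl* to *Mlxip* and *Thrsp* to *Fasn* are higher in all 3.

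The genes around the 10 were read as lists. Of 13 tested genes for acetyl-CoA and NADPH supply, edgeR called 7 higher and 0 lower (9 and 0 at an unadjusted p under 0.05, 9 and 0 by DESeq2), with a median log2 fold change of 0.97 beside -0.02 over all genes. Over all genes edgeR called 12.6% higher and DESeq2 18.1%, and 6852 of 16807 had an unadjusted p under 0.05 in either direction. The difference between the list and the table was not tested. Adipocyte and thermogenic markers were higher in the same libraries, with 2 of 8 and 5 of 6 called, and their part in this list was not tested. *Mpc2*, a subunit of the mitochondrial pyruvate carrier, had 108, 104 and 131 CPM in YT-FF and 435, 767 and 336 CPM in the libraries labelled YT-AKO. Every library of the latter was above the highest YT-FF value, and the log2 fold change was 2.16 ± 0.32 (edgeR adjusted p = 0.0171). *Pgls* and *Taldo1*, of the pentose phosphate pathway, rose by 1.62 ± 0.38 and 1.53 ± 0.27 (edgeR adjusted p = 0.0280 and 0.0185), where *Pgls* shares 20.6% of its exon bases with another gene. *Slc25a1*, the mitochondrial citrate carrier that supplies the substrate of *Acly*, is named after its values were seen. It had 593, 496 and 629 CPM against 1721, 997 and 993 CPM, with no overlap (log2 fold change 1.11 ± 0.27, edgeR adjusted p = 0.0296). *G6pdx*, for the entry enzyme of the pentose phosphate pathway, and *Idh1*, also chosen after the values were seen, had log2 fold changes of -0.06 and 0.10 and were not called. With the length correction 6 of the 7 calls were made again. All 7 were made again without YT-AKO 1, YT-AKO 2 or YT-AKO 3, 5 without YT-FF 3, and 0 without YT-FF 1 or YT-FF 2, fits that called 0 and 2 genes in the whole table.

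Genes for the control and use of malonyl-CoA numbered 10, of which edgeR called 5 higher and 0 lower (5 and 2 at an unadjusted p under 0.05 and by DESeq2), with a median log2 fold change of 0.45. Over all genes edgeR called 12.6% higher and 9.01% lower, and DESeq2 18.1% and 14.3%. At an unadjusted p under 0.05, 6852 of 16807 genes were found in either direction. The difference between this list and the table was not tested. *Acsf3*, a mitochondrial malonyl-CoA synthetase, rose by 1.29 ± 0.19 (edgeR adjusted p = 0.0171). *Mlycd* had 43.9, 44.2 and 61.3 CPM in YT-FF and 99.1, 128 and 116 CPM in the libraries labelled YT-AKO, a log2 fold change of 1.20 ± 0.19 (edgeR adjusted p = 0.0177). *Prkag1*, a subunit of the AMP-activated kinase that inhibits both carboxylases, rose by 1.11 ± 0.30 (edgeR adjusted p = 0.0374), with 43.7% of its exon bases shared with another gene. The catalytic subunits of that kinase, named after their values were seen, had log2 fold changes of -0.41 ± 0.14 (*Prkaa1*, adjusted p = 0.0640 by edgeR and 0.0298 by DESeq2) and -0.29 ± 0.26 (*Prkaa2*, 0.421 and 0.456). *Cpt1a*, of this list and likewise named later, had 57.1, 59.8 and 62.7 CPM in YT-FF and 40.4, 24.2 and 45.5 CPM in the libraries labelled YT-AKO. Its groups did not overlap, and its log2 fold change was -0.71 ± 0.24 (adjusted p = 0.0648 by edgeR and 0.0276 by DESeq2). Of the 5 calls, 3 were made again with the length correction and 0 without YT-FF 1 or YT-FF 2.

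Genes that modify the products of the synthase were mostly not called. Of 7 desaturases and elongases edgeR called 1 higher, *Elovl3*, and 0 lower (1 and 1 at an unadjusted p under 0.05 and by DESeq2), with a median of -0.07. These counts are near the shares over all genes, 12.6% higher and 9.01% lower by edgeR, and 18.1% and 14.3% by DESeq2. The lower gene was *Fads2* at the unadjusted p and *Scd1* by DESeq2 (adjusted p = 0.0465), both named after their values were seen. *Scd1* had the highest level of this list, at 26041, 22587 and 45194 CPM in YT-FF and 23108, 8021 and 16457 CPM in the libraries labelled YT-AKO. Its groups overlapped in CPM but not in TPM (log2 fold change -0.98 ± 0.45, edgeR adjusted p = 0.143). *Elovl3*, an elongase of brown and beige fat, had only 2, 8 and 6 counts in YT-FF, near the floor of 3. It went from 0.0852, 0.352 and 0.309 CPM to 28.7, 10.4 and 6.15 CPM (log2 fold change 5.90 ± 0.76, edgeR adjusted p = 0.0166), a size that rests on those low counts. The thermogenic markers moved with it: 6 of them summed to 163 to 233 CPM in YT-FF and 1627 to 3602 CPM in the libraries labelled YT-AKO, with 5 of the 6 called higher.

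In the SREBP machinery and the other lipogenic transcription factors, 14 genes were tested and edgeR called 2 higher and 1 lower (4 and 3 at an unadjusted p under 0.05 and by DESeq2), with a median of 0.13. The edgeR counts are near the shares over all genes, 12.6% higher and 9.01% lower. DESeq2 called 18.1% and 14.3% of all genes, and 6852 of 16807 had an unadjusted p under 0.05. *Nr1h3*, which encodes the oxysterol receptor LXR alpha that is known to induce *Srebf1*, had 79.0, 83.9 and 102 CPM in YT-FF and 153, 240 and 161 CPM in the libraries labelled YT-AKO (log2 fold change 1.06 ± 0.22, edgeR adjusted p = 0.0226). *Usf2*, an E-box factor, rose by 0.81 ± 0.24 (edgeR adjusted p = 0.0473). *Mbtps2*, a protease that frees SREBPs from the membrane, fell by 0.79 on the log2 scale (edgeR adjusted p = 0.0246), with 28.4% of its exon bases shared. With the length correction 1 gene of this list was called higher and 0 lower.

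Cholesterol genes, the other branch under SREBP control, gave 1 call higher and 1 lower of 13 tested, with a median log2 fold change of -0.27. The calls are near the edgeR shares over all genes, 12.6% higher and 9.01% lower. *Sc5d* fell by 0.95 on the log2 scale and *Mvk* rose by 0.80 (edgeR adjusted p = 0.0203 and 0.0366). The median was 0.07 with the length correction, so the list had no direction that held on both scales. Among 7 tested genes known to respond to carbohydrate, edgeR called 2 higher and 0 lower (2 and 0 at an unadjusted p under 0.05 and by DESeq2). They were *Khk* (ketohexokinase), with 17.0, 13.1 and 16.4 CPM in YT-FF against 35.3, 67.6 and 29.3 CPM (log2 fold change 1.51 ± 0.32, edgeR adjusted p = 0.0235), and *Gpd1*, with 889, 786 and 1088 CPM against 2589, 1871 and 2813 CPM (1.40 ± 0.24, edgeR adjusted p = 0.0182). *Gpd1* makes the glycerol phosphate to which fatty acids are joined. Beside these 2 of 7 stand 12.6% of all genes called higher by edgeR and 18.1% by DESeq2, and the difference was not tested.

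**Figure D5:**
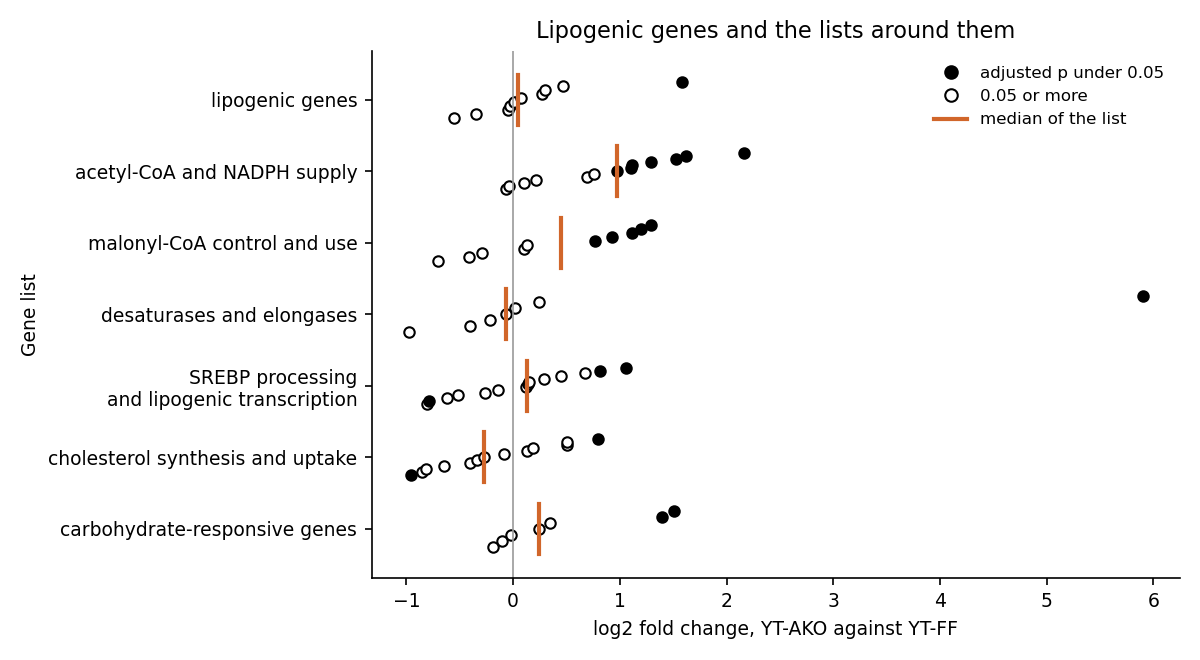
Log2 fold change of each tested gene in the list of 10 lipogenic genes and the 6 lists around it. Filled points have an edgeR adjusted p under 0.05 and bars mark list medians. The supply list has a median of 0.97 with 7 filled points, while the lipogenic genes have a median of 0.04 with 1.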

How the data were processed

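The members and lists were chosen with earlier results of these data known. The authors prepared the libraries with a NEBNext Ultra kit, sequenced them as paired ends, aligned them by HISAT2 to mm10 and used featureCounts 2.0.1 on GENCODE vM25 exons to count fragments for each gene, without strand and leaving out fragments with several places or genes. The deposited values are these raw counts, with the exon length of each gene beside them. Of 55401 gene IDs, 55141 were matched to symbols. The 37 mitochondrial genes were at 0 in all libraries.

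Counts of all genes were tested in R 4.3.3 with edgeR 4.0.16 (TMM, filterByExpr with minimum count 10 and minimum total 15, quasi-likelihood test, Benjamini-Hochberg adjustment over 16807 genes, called under 0.05). The intervals are 95% intervals of the fitted log2 fold change. CPM uses the TMM factors, and TPM the deposited lengths. Ratios are log2 ratios of TPM + 0.1, compared by exact permutation. DESeq2 1.42.0, voom (limma 3.58.1), other scalings and filters, left-out libraries, the replicate number as a block, and length and GC corrections (splines with 6 degrees of freedom on TMM-scaled values) were alternatives. The length correction without YT-AKO 2 and the *Thrsp* to *Fasn* pair were chosen after seeing the data. On simulated counts of 16370 genes edgeR recovered 95% of 200 genes changed by a log2 of 2, with 6 false calls. DESeq2 recovered 98% with 48 false calls. Smaller changes were not simulated. Symbols were matched by gene ID. Coordinates and exon overlaps came from the exons deposited with the counts (GENCODE vM25). GC content, and the exons that cut the printed sequences, came from GENCODE vM21 (GRCm38).

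The genes named are the members, their pair partners, *Yap1* and *Wwtr1*, the 3 called genes of each other list with the largest change, the 5 genes nearest to *Fasn* by profile, and 5 tissue markers. Added after their values were seen were *Slc25a1*, *G6pdx*, *Idh1*, *Prkaa1*, *Prkaa2*, *Cpt1a*, *Scd1*, *Fads2* and *Cfd*. Totals of 17740987 to 21838493 counts set the precision of counting, and 3 counts are the floor of a library. The fragments carry no molecular identifiers, so this precision covers counting error only. It does not cover the spread between samples, on which the errors of the fold changes also rest.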

Additional observations from a re-analysis of the deposited data

How the results depend on the processing

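The median of the 10 genes and the calls were recomputed under each alternative. Of 10 genes, 1 was called higher and 0 lower in the reported fit. The count higher was 2 with the length correction, also without YT-AKO 2, and 0 to 1 when 1 library was left out; the count lower was then 0 to 1, *Acaca* without YT-AKO 1. Over all genes, 2121 were higher and 1515 lower. Without 1 library, 0 to 2925 were higher and 0 to 2424 lower (without YT-FF 1, 0 were called and 4665 had an unadjusted p under 0.05). DESeq2 gave 2392 lower, the length correction 800 lower, and library totals alone 1137 higher and 2828 lower, with the members' median at -0.27.

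Whether the replicate numbers pair the samples is not known. Deviations of same-numbered libraries correlated at 0.126, -0.118 and -0.0893. Those of different numbers ran from -0.140 to 0.160, so the correlations cannot decide it. With the number as a block, 24 genes were higher and 9 lower and 0 members higher (*Thrsp* 1.47, edgeR adjusted p = 0.0796). The block with the length correction gave 56, 22 and 0.

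Signs changed for small differences. With the length correction, the block with it, and the correction without YT-AKO 2, *Mlxipl* was 0.12, 0.13 and 0.10, *Acss2* 0.33, 0.38 and 0.39, and *Fasn* 0.0756, 0.0415 and 0.14; *Insig1* was -0.0423 and -0.0476 in the first pair, and *Acaca* 0.0668 in the last. With library totals alone *Srebf1* was -0.32, *Insig1* -0.23, *Me1* -0.0250 and *Acacb* -0.00894. *Srebf1* was -0.0344 with upper-quartile scaling, -0.0210 with at least 10 counts in every library and -0.31 with the GC correction, where *Acss2* was 0.0270. Leaving out 1 library, the ranges were -0.21 to 0.17 for *Mlxipl*, -0.11 to 0.14 for *Srebf1*, -0.13 to 0.74 for *Acly*, -0.26 to 0.22 for *Acss2*, -0.0930 to 0.46 for *Me1*, -1.01 to -0.36 for *Acaca* and -0.71 to -0.19 for *Fasn*. The causes were not tested.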

Other observations

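The profile of *Fasn* over the 6 libraries had close neighbours, measured as the Euclidean distance of log2 CPM centred on each gene's mean among 15179 genes with a mean of at least 1 CPM. The nearest were *Kit* (distance 0.260), *Lrig3* (0.282), *Ttll7* (0.284), *Pmaip1* (0.290) and *Klhl33* (0.322). *Kit*, which encodes a receptor tyrosine kinase, had 26.2, 19.6 and 25.2 CPM in YT-FF and 24.8, 15.3 and 13.0 CPM in the libraries labelled YT-AKO, and edgeR did not call it (log2 fold change -0.42, adjusted p = 0.268). Among the lipogenic genes *Acaca* was nearest to *Fasn*, at rank 11 (0.349), and *Thrsp* farthest, at rank 13901 (2.64). *Mlxipl* was at rank 1272 and *Srebf1* at rank 5092. The likeness is a description over 6 libraries that share their depth and scaling.

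Markers of other cells were read over whole lists. Over all genes edgeR called 12.6% higher and 9.01% lower. B cell markers summed to 731 to 833 CPM in YT-FF and 472 to 733 CPM in the libraries labelled YT-AKO, with 2 of 4 called lower, and endothelial markers to 517 to 539 CPM and 338 to 457 CPM, with 1 of 4 called lower. Macrophage markers ran from 981 to 1174 CPM and from 1319 to 1659 CPM, with 0 of 5 called (edgeR; 1 at an unadjusted p under 0.05, 0 by DESeq2). Fibroblast and progenitor markers gave 1 call higher and 1 lower of 6. Of 6 tested skeletal muscle markers edgeR and DESeq2 called 1 higher and 0 lower. Of T cell, Schwann cell, epithelial, hepatocyte and brown depot markers edgeR and DESeq2 called 0, and 0 had an unadjusted p under 0.05. Only 1 of 5 epithelial, 1 of 4 hepatocyte and 1 of 2 brown depot markers had enough counts to be tested. The part of any of these markers in the lipogenic genes was not tested.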
